A study of Mus musculus with 6 samples.

Results

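Transcript levels of 10 Polycomb repressive complex genes, Ezh1, Ezh2, Eed, Suz12, Jarid2, Rnf2, Bmi1, Cbx2, Cbx7 and Phc1, were followed in nephron progenitors of the embryonic mouse kidney. The genes were taken by symbol from a deposited table of 27179 Entrez Gene entries, and all 10 had an entry. RNA came from Six2-positive progenitors sorted at E16.5 by green fluorescence under control of the Six2 locus. Controls were Six2TGC and mutants were Six2TGC;miR-17~92fl/fl. Six2TGC, which both genotypes had, drives green fluorescent protein and Cre recombinase, and only the mutants had the microRNA cluster flanked by Cre sites. There were 3 libraries of each genotype, every one a pool of cells sorted from 4 embryos. Cre acts only in cells with Six2 activity and in their descendants. The control labels name no floxed allele and no strain is given, so that the deletion and background carried with the floxed allele cannot be told apart. The sex mix of the pools also went partly with genotype, as the Xist levels given below show, and its part was not tested.

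Polycomb proteins keep developmental genes silent through 2 complexes. PRC2 places methyl groups on a lysine of histone H3 through the catalytic subunit EZH2 or its paralog EZH1, with EED and SUZ12 as core partners and JARID2 as an accessory subunit that aids its recruitment. PRC1 places ubiquitin on histone H2A through RNF2 (also called RING1B) or RING1 together with a PCGF protein such as BMI1, while CBX proteins read the methyl mark through a chromodomain and PHC proteins join complexes to each other. In many tissues EZH2 is the form of dividing cells and EZH1 that of cells that have stopped dividing. The Cdkn2a locus, which encodes cell cycle inhibitors, is a textbook Polycomb target.

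The deleted cluster encodes microRNAs with 4 different seeds, the bases 2 to 8 that pair with target transcripts. Their mature sequences (RefSeq, GRCm38.p6, chromosome 14, forward strand) are shown with the seed in capitals, because matches to these seeds are counted in the Polycomb transcripts.
miR-17-5p: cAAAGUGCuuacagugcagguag
miR-20a-5p: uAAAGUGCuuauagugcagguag
miR-18a-5p: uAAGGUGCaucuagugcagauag
miR-19a-3p: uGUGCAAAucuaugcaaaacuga
miR-19b-3p: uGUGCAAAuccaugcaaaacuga
miR-92a-3p: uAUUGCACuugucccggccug
miR-17-5p and miR-20a-5p share 1 seed, and miR-19a-3p and miR-19b-3p share another.

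Exact matches to these seeds were searched on the transcribed strand of the 3' UTR, taking the longest that is annotated for a gene (GENCODE M21, the same genome build). Of the 10 Polycomb genes 5 held at least 1 match, namely Ezh1, Suz12, Jarid2, Rnf2 and Cbx7, with 2 matches each. Of 11573 tested genes with an annotated 3' UTR, 34.63% held a match. The 3' UTRs of the 10 genes had a median length of 1868 bases, against 1231 bases over those tested genes. No match was present in the windows of Ezh2, Eed, Bmi1, Cbx2 and Phc1, and the 3' UTRs of Ezh2 and Eed were 402 and 410 bases long. The matches of the PRC2 genes Ezh1 and Suz12 and of the PRC1 gene Rnf2 follow as examples from each complex, with the seed match in capitals and 11 flanking bases on each side, all as letters of the transcript.
Ezh1, miR-17/20a match GCACTTT, chr11:101191999-101192027, reverse strand: tagagaacaaaGCACTTTaactctctttt
Ezh1, miR-17/20a match GCACTTT, chr11:101191153-101191181, reverse strand: gtaaatttcttGCACTTTaaagtcctgtg
Suz12, miR-19 match TTTGCAC, chr11:80032929-80032957, forward strand: tgtgcacgtctTTTGCACtaggatggtaa
Suz12, miR-19 match TTTGCAC, chr11:80033791-80033819, forward strand: ggctagcattgTTTGCACaaaaaattggt
Rnf2, miR-17/20a match GCACTTT, chr1:151470353-151470381, reverse strand: ggagatattttGCACTTTagccttgatga
The miR-19 match of Rnf2 overlaps its miR-17/20a match by 4 bases. Over the tested genes, 14.97% held a miR-17/20a match, 13.90% a miR-19 match, 9.38% a miR-18a match (GCACCTT) and 7.94% a miR-92a match (GTGCAAT). Among the 10 Polycomb genes these matches were present in 2, 4, 0 and 1 gene.

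Library depth, worked out from the steps of whole reads in the deposited RPKM values, ranged from 27602025 to 36134381 reads. Mir17, from the deleted cluster, had 16 to 31 reads per control library and 0 to 2 per mutant library, which follows the labels. Its host transcript Mir17hg was at 33.6 to 52.9 RPKM in controls and 183 to 259 in mutants (log2 difference 2.26, limma, adjusted p 4.93e-05). The median log2 fold change (mutant over control) over all tested genes was -0.125 as deposited and -0.032 after median-of-ratios scaling. Mitochondrial ribosomal RNA took 26.96% to 30.35% of reads in controls and 32.23% to 38.24% in mutants, without overlap, and its part in that shift was not tested beyond the rescaled fits. Six2 itself was at 83.5, 69.9 and 104 RPKM in controls and 63.5, 57.0 and 77.0 in mutants (log2 difference -0.37, limma, unadjusted p 0.047, adjusted p 0.249). The 12 nephron progenitor markers summed to 780 to 849 RPKM in controls and 617 to 738 in mutants, and 1, Meox1, fell. Eya1 and Crym, with control means of 284 and 155 RPKM, weigh most in that sum. By log2 fold change 9 of the 12 were below 0 and 3 above, namely Itga8 (0.34), Wt1 (0.14) and Pax2 (0.02). The 10 renal vesicle markers summed to 102 to 123 and 110 to 141 RPKM, and 2 of 9 tested, Cdh6 and Emx2, rose. Macrophage markers summed to 5.69 to 9.62 RPKM in controls and 15.9 to 16.9 in mutants over 10 genes, and 3 of 6 tested members rose (Fcer1g, Ctss and Tyrobp). Nephron tubule markers summed to 4.07 to 4.83 RPKM in controls and to 8.20, 6.85 and 20.1 in mutant replicates 1 to 3 over 8 genes, and 1 of 4 tested members, Slc12a1, rose. Over the alternatives run the adjusted p reached 0.236 for Tyrobp, 0.161 for Emx2, 0.0875 for Slc12a1 and 0.0776 for Cdh6, so that these 4 calls were lost under some of them. Over all tested genes, 1.32% were called higher and 1.81% lower in mutants. Testing required a mean of 0.5 RPKM over the 6 libraries. Ctss, Tyrobp and Slc12a1 had control means of 0.208, 0.433 and 0.326 RPKM, and reached it only through their mutant values. Counts out of tested members therefore favour genes that rise. None of the defining markers of these lists was at 0 in all libraries. The part of these cell types in the levels of the Polycomb genes was not tested. In bulk RNA, fewer cells of a type and less RNA per cell cannot be told apart.

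The Polycomb genes spanned a wide range of levels, and the catalytic subunit of PRC2 led them. Levels are in RPKM, reads scaled by gene length and library depth, and so may be compared between genes. Ezh2 had the highest mean over the 6 libraries, 101 RPKM, above 97.9% of tested genes. Suz12 followed with 63.8 RPKM, Eed with 47.7, Rnf2 with 28.5, Bmi1 with 25.7, Jarid2 with 20.2, Phc1 with 18.4, Ezh1 with 12.5, Cbx2 with 5.39 and Cbx7 with 0.226. The ranges over the 6 libraries did not overlap between Ezh2, Suz12, Eed and Rnf2. They overlapped between Rnf2 and Bmi1, between Bmi1 and Jarid2 and between Jarid2 and Phc1. The order of these neighbours therefore does not exceed their spread over libraries. Within libraries, Bmi1 was above Jarid2 except in mutant replicate 3, where both were at 20.5 RPKM. The ranges of Phc1 and Ezh1 also overlapped, but Phc1 was above Ezh1 in each library. Cbx2 lay below all of these genes in each library, and Cbx7 lay below Cbx2.

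**Figure D1:**
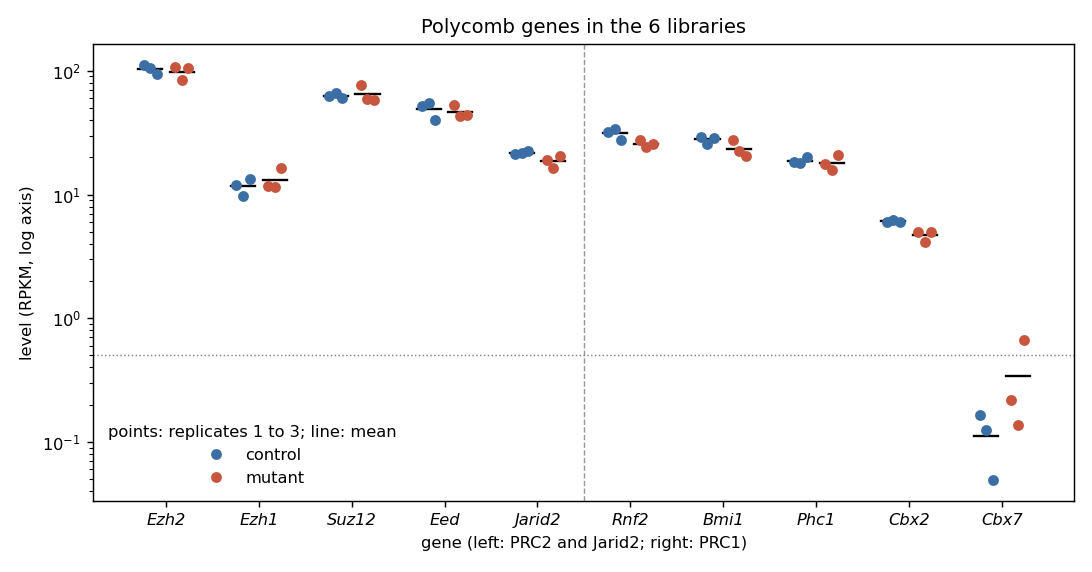
Levels of the 10 Polycomb genes in RPKM on a log axis, with a point for each of the 3 control (blue) and 3 mutant (red) libraries and a line at each group mean; the dotted line marks the filter of 0.5 RPKM. The controls and mutants sit close together in most genes, and Cbx7 lies below the filter in all libraries except mutant replicate 3, at 0.664 RPKM.

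Ezh2 (Entrez Gene 14056), on chromosome 6, 47530139 to 47595341, encodes the main methyltransferase of PRC2. It was at 112, 105 and 95.1 RPKM in control replicates 1 to 3 and at 107, 84.0 and 105 RPKM in mutant replicates 1 to 3. The groups overlapped, and the lowest value was that of mutant replicate 2. The control mean was 104 ± 8.63 RPKM and the mutant mean 98.6 ± 12.7 (SD, n = 3 each), which gave a log2 fold change of -0.08 (95% interval -0.39 to 0.22; limma, adjusted p 0.753). On the linear scale that interval spans 0.76 to 1.17 times the control level.

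Ezh1 (Entrez Gene 14055), on chromosome 11, 101191115 to 101226463, encodes the alternative methyltransferase. Its level was 12.0, 9.77 and 13.3 RPKM in the controls and 11.8, 11.5 and 16.3 RPKM in the mutants. The groups overlapped, and mutant replicate 3 was the highest library. Tubule markers summed to 4.07, 4.83 and 4.33 RPKM in the controls and to 8.20, 6.85 and 20.1 RPKM in the mutants. Their part in the Ezh1 level was not tested. The log2 fold change was 0.16 (95% interval -0.21 to 0.53; limma adjusted p 0.6). Within a library, Ezh2 exceeded Ezh1 by 8.95-fold in controls and by 7.52-fold in mutants (geometric means). Ezh2 made up 87.7% to 91.5% of the summed level of the pair in controls and 86.5% to 90% in mutants. The log2 ratio of Ezh1 to Ezh2, which does not depend on library scaling, was 0.25 higher in mutants (-3.16 ± 0.30 against -2.91 ± 0.25, SD, n = 3). An exact two-sided permutation test gave p = 0.3, where 3 against 3 libraries allow no p below 0.1.

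Suz12 (Entrez Gene 52615), on chromosome 11, 79993106 to 80034123, encodes the core scaffold subunit of PRC2. It was measured at 62.7, 65.7 and 60.8 RPKM in controls and at 76.3, 59.7 and 57.8 RPKM in mutants. Mutant replicate 1 was above each control library and the other 2 mutant libraries were below each of them. This gave a log2 fold change of 0.02 (95% interval -0.28 to 0.32; limma adjusted p 0.938).

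Eed (Entrez Gene 13626), on chromosome 7, 89954654 to 89980983, encodes the subunit that binds the methyl mark. Values were 51.5, 55.4 and 39.8 RPKM in controls and 53.0, 43.0 and 43.6 RPKM in mutants, and the lowest library was a control. The log2 fold change was -0.06 (95% interval -0.40 to 0.27; limma adjusted p 0.831). An opposite-strand gene covers 6.82% of the exonic bases of Eed, and such overlaps covered 2.61% for Ezh2, 3.60% for Suz12, 3.83% for Rnf2 and 1.54% for Cbx7. Whether counting used strand is not stated in the labels or headers, and reads in those stretches may come from either gene.

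Jarid2 (Entrez Gene 16468), on chromosome 13, 44729474 to 44921643, encodes an accessory subunit of PRC2. Control libraries were at 21.2, 21.5 and 22.6 RPKM and mutant libraries at 19.1, 16.3 and 20.5 RPKM. Each mutant library was below each control library as deposited. The means were 21.8 ± 0.758 and 18.6 ± 2.12 RPKM (SD, n = 3), and the log2 fold change was -0.23 (95% interval -0.51 to 0.06; limma adjusted p 0.356).

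Among PRC1 genes, Rnf2 (Entrez Gene 19821), on chromosome 1, 151458004 to 151500955, encodes the catalytic ubiquitin ligase. Its values were 32.0, 34.0 and 27.6 RPKM in controls and 27.5, 24.4 and 25.4 RPKM in mutants. As deposited, the groups did not overlap, though control replicate 3 and mutant replicate 1 were nearly level. The log2 fold change was -0.27 (95% interval -0.55 to 0.02; limma adjusted p 0.279). Its paralog Ring1 was nearly absent, at 33 reads in the controls together and 25 in the mutants together. Rnf2 therefore made up 98.8% to 99.8% of the summed level of the pair in the 6 libraries. The ratio of Ring1 read rates was 0.829 (95% counting interval 0.473 to 1.44), and 0.391 (0.156 to 0.864) without mutant replicate 3. Such intervals leave out the spread between pools, with 5, 17 and 11 Ring1 reads in control replicates and 5, 3 and 17 in mutant replicates. They are too narrow even for counting error where reads amplified from 1 molecule are not independent.

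Bmi1 (Entrez Gene 12151), on chromosome 2, 18677018 to 18686629, encodes a PCGF partner of RNF2 in canonical PRC1. It was at 29.2, 25.5 and 28.9 RPKM in controls and at 27.5, 22.5 and 20.5 RPKM in mutants, and mutant replicate 1 lay within the control range. Its log2 fold change was -0.25 (95% interval -0.56 to 0.06; limma adjusted p 0.343). Its value is uncertain, because 28.15% of its 31-base words occur in another gene, with Gm5946 as the closest entry. Gm5946 was at 5.98 to 7.11 RPKM in controls and 4.72 to 6.32 in mutants, and held 12.7% to 18.9% of the summed reads of both entries. The other 9 Polycomb genes shared at most 1.65% of their words with a gene elsewhere. Bmi1 was the most abundant of 6 PCGF genes in each library and made up 28.1% to 35.1% of their summed level. The log2 ratio of Bmi1 to its closest paralog Pcgf2 was 1.33 ± 0.11 in controls and 1.47 ± 0.36 in mutants (SD, n = 3; exact two-sided permutation p = 0.6).

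Phc1 (Entrez Gene 13619), on chromosome 6, 122317731 to 122340561, encodes a polyhomeotic protein. Controls were at 18.2, 18.1 and 20 RPKM and mutants at 17.7, 15.7 and 20.8 RPKM, so that the mutants spanned the controls. Its log2 fold change was -0.06 (95% interval -0.36 to 0.24; limma adjusted p 0.823). Within the polyhomeotic family, Phc1 made up 47.4% to 50.3% of the summed level of the 3 paralogs in controls and 42.7% to 44.5% in mutants. The share of Phc3 was 29.0% to 34.9% in controls and 43.2% to 44.4% in mutants, and that of Phc2 was 14.8% to 22.6% and 12.4% to 12.9%. These shares do not depend on library scaling, but they add up to the whole, so that a higher share of 1 paralog lowers the others. They were chosen after their values were seen and no test is given.

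Cbx2 (Entrez Gene 12416), on chromosome 11, 119022962 to 119031270, encodes a chromodomain reader. Its values were 6.0, 6.23 and 6.0 RPKM in controls and 4.99, 4.15 and 4.96 RPKM in mutants. The controls lay close together, and each mutant library was lower. The means were 6.08 ± 0.132 and 4.70 ± 0.478 RPKM (SD, n = 3), and the log2 fold change was -0.34 (95% interval -0.66 to -0.03). This was the lowest p among the 10 genes, 0.0361 unadjusted, and it did not pass adjustment over all tested genes (limma adjusted p 0.228; 0.205 to 0.517 over the alternatives run). Cbx8, a paralog, lies next to Cbx2 on chromosome 11, at 119036305 to 119040969. On the log2 scale Cbx8 differed by -0.18 (limma, adjusted p 0.697).

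Cbx7 (Entrez Gene 52609), on chromosome 15, 79915807 to 79971119, encodes another chromodomain reader and was the lowest of the 10 genes. Its read numbers were 14, 13 and 4 for control replicates and 19, 11 and 53 for mutant replicates, or 0.164, 0.124 and 0.0492 RPKM and 0.217, 0.137 and 0.664 RPKM. The groups overlapped, and mutant replicate 3 stood far above the other libraries. With a mean below 0.5 RPKM it was not tested across genes in the main fit. Without that filter Cbx7 had a log2 fold change of 0.41, and the lowest adjusted p of the 10 genes was 0.29 (limma). An exact two-sided permutation test of Cbx7 RPKM gave p = 0.2. The ratio of mutant to control read rates was 2.93 (95% counting interval 1.92 to 4.58), and 1.56 (0.914 to 2.67) without mutant replicate 3. These intervals pool the reads of a group and leave out the spread between pools, so that they do not test the genotypes. In that library the tubule markers also summed highest, to 20.1 RPKM, and their part in the Cbx7 level was not tested. Cbx2 exceeded Cbx7 by 60.7-fold in controls and by 17.3-fold in mutants (geometric means). The log2 ratio of Cbx7 to Cbx2 was -5.92 ± 0.90 in controls and -4.12 ± 1.07 in mutants (SD, n = 3; exact two-sided permutation p = 0.1, the smallest that 3 against 3 libraries allow). The difference of 1.81 was 1.2 without mutant replicate 3.

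**Figure D2:**
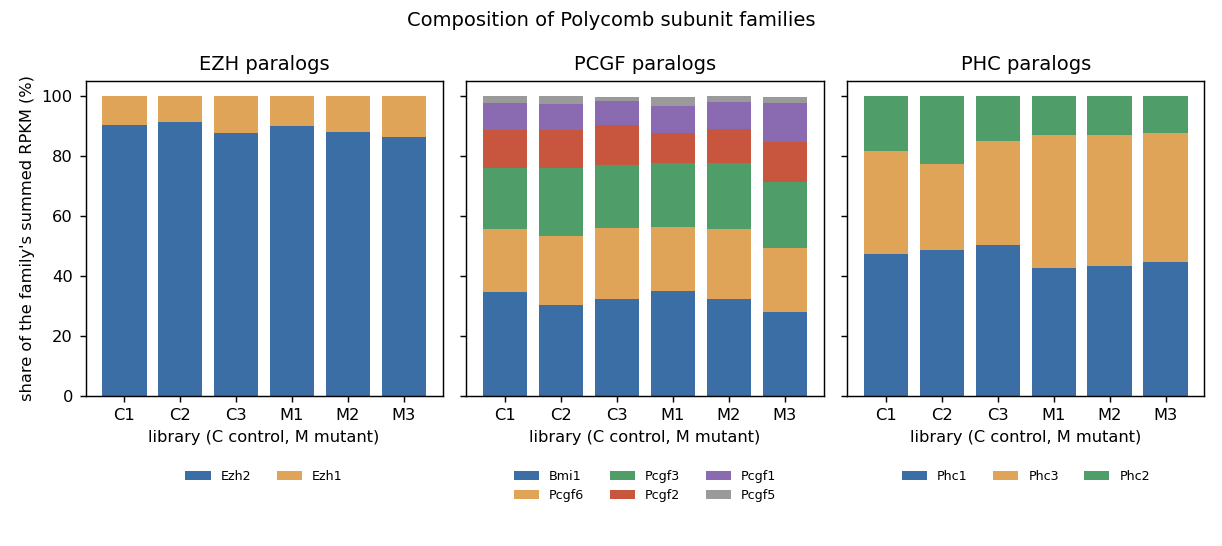
Share of each paralog in the summed RPKM of its family, in percent, as stacked bars for control (C1 to C3) and mutant (M1 to M3) libraries. Ezh2 holds at least 86.5% of the EZH pair in each library, and the share of Phc3 is 29.0% to 34.9% in controls and 43.2% to 44.4% in mutants.

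Taken over the list, none of the Polycomb genes passed the test between genotypes. Of 10 genes 9 had a mean of at least 0.5 RPKM and were tested, and 0 of these had a limma adjusted p under 0.05, where 3.13% of 13463 tested genes did (1.32% higher and 1.81% lower in mutants). At an unadjusted p under 0.05, 1 of 9 passed in limma, Cbx2, which was lower, against 19.6% of all tested genes (5.94% higher and 13.7% lower). With voom on recovered reads 0 of 9 passed after adjustment, against 5.08% of all tested genes, and 0 of 9 without it, against 18.7%. As deposited, each mutant library lay below each control library in 3 of 9 genes (Jarid2, Rnf2 and Cbx2), against 18.0% of all tested genes. In 0 of 9 did each lie above, against 7.06%. These separations were not counted again after rescaling. Log2 fold changes as deposited ran from -0.34 to 0.16 with a median of -0.08, and the median over all tested genes was -0.125. Relative to that median 5 of the 9 lay above and 4 below. Their direction against 0 depended on scaling, since Ezh2, Eed and Phc1 had log2 fold changes of -0.08, -0.06 and -0.06 as deposited and 0.02, 0.04 and 0.04 once scaled by median of ratios. As deposited, the 95% intervals of the 9 genes reached from -0.66 to 0.53, and only that of Cbx2 left out 0. By median of ratios the log2 fold changes of Jarid2, Rnf2 and Cbx2 were -0.12, -0.17 and -0.25. There, and after quantile normalization, 0 of the 9 genes had an unadjusted p under 0.05 in limma.

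**Figure D3:**
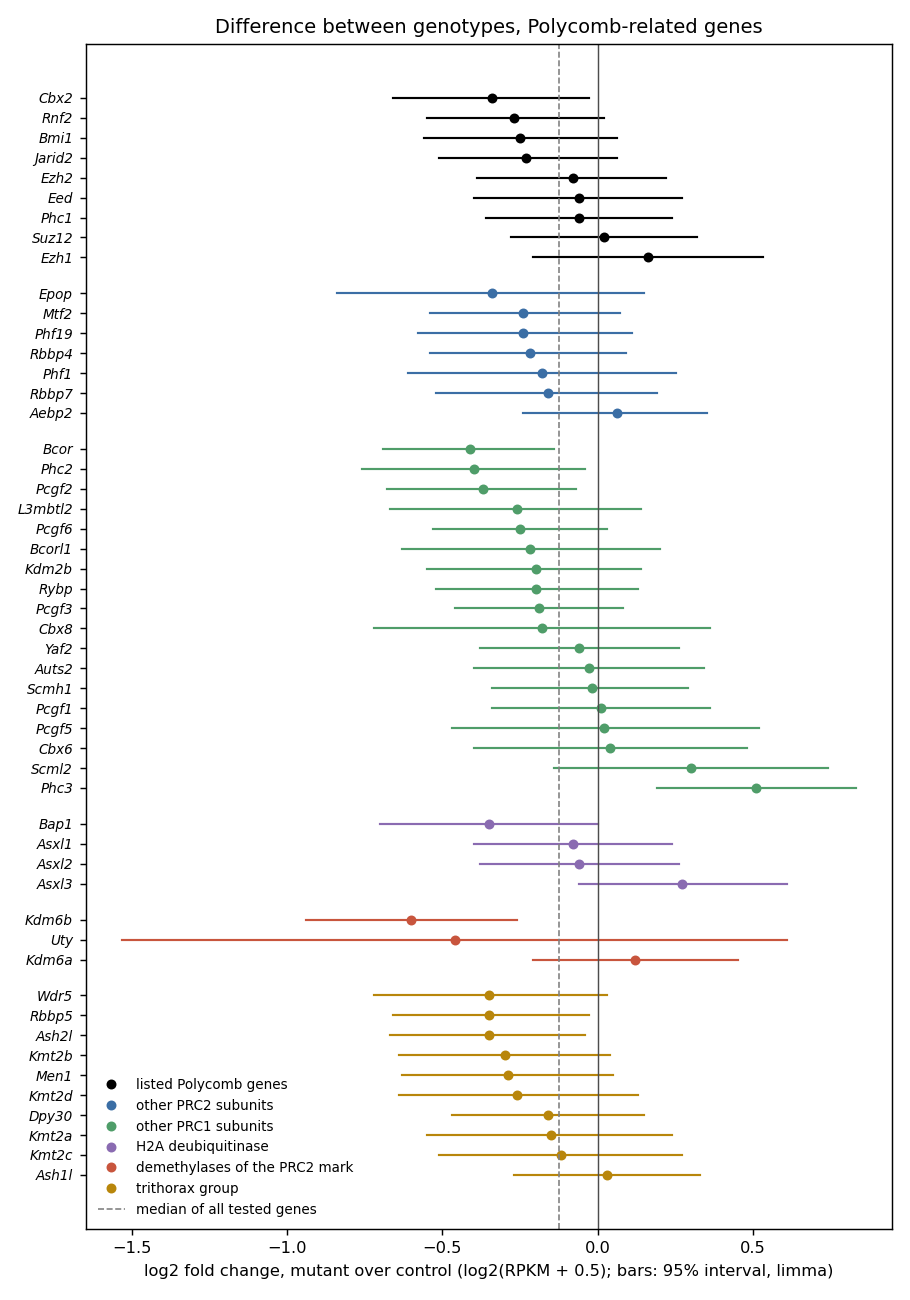
Log2 fold changes (mutant over control, on log2(RPKM + 0.5)) with 95% limma intervals for 9 tested Polycomb genes and 42 of 43 tested genes of the wider pathway, grouped by role; the dashed line marks the median of all tested genes at -0.125. The intervals of 8 of the 9 Polycomb genes include 0, and Phc3 and Kdm6b lie farthest out in the PRC1 and demethylase groups.

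The wider Polycomb pathway was examined in 44 further genes, of which 43 were tested and Ring1 was below the filter. In limma 0 of 43 passed, against 3.13% of all tested genes, and 8 had an unadjusted p under 0.05 (1 higher and 7 lower), against 19.6% (5.94% higher and 13.7% lower). With voom on recovered reads 2 of 43 passed, Phc3 and Kdm6b, against 5.08%. Both the unadjusted and the voom counts are near the shares of all tested genes. Their median log2 fold change was -0.20 as deposited and -0.11 once scaled by median of ratios. As deposited, each mutant library was below each control library in 10 genes and above each in 1. All tested genes gave 18.0% and 7.06%.

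Of 7 other PRC2 subunits, 0 passed. For the histone chaperone gene Rbbp4 the log2 difference was -0.22 (limma, adjusted p 0.395). Mtf2, a Polycomb-like subunit that aids recruitment, had -0.24 (0.364), and Epop had -0.34 (0.411). Among 19 tested PRC1 subunits, 0 passed. Phc3 was at 13.2, 10.8 and 13.8 RPKM in controls and at 18.4, 15.9 and 20.2 RPKM in mutants, with no overlap between the groups. On the log2 scale it was 0.51 higher (SE 0.15), with an adjusted p in limma of 0.0936, and of 0.00916 to 0.218 over the alternatives run. It passed with median-of-ratios scaling (0.0377), with quantile normalization (0.037), when depth excluded mitochondrial ribosomal RNA (0.038), with voom (0.00916) and without control replicate 3 (0.0327). Bcor, a corepressor of variant PRC1, was at 17.9, 17.1 and 18.0 RPKM in controls and at 13.7, 11.9 and 13.8 RPKM in mutants (log2 fold change -0.41, limma adjusted p 0.113). For Pcgf2 it was -0.37 (0.182).

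Among enzymes that act against Polycomb marks, the demethylase gene Kdm6b had the lowest p. It was at 10.5, 11.1 and 12.9 RPKM in controls and at 7.04, 6.45 and 8.79 RPKM in mutants, without overlap. On the log2 scale the difference was -0.60 (SE 0.15), with an adjusted p in limma of 0.0617, and of 0.0434 to 0.254 over the alternatives run. It passed with robust variance moderation (0.0495) and with voom (0.0434). Its X-linked relative Kdm6a was at 19.6 to 27.9 RPKM in controls and 22.6 to 26.5 in mutants (log2 difference 0.12, limma, adjusted p 0.66). The Y-linked relative Uty had -0.46 (0.606). Xist, an RNA of the inactive X chromosome in female mice, had values of 154, 0.034 and 0.0278 RPKM in the control pools and 60.1, 180 and 122 RPKM in the mutant pools, so that the sex mix differed between pools. Xist was near 0 in control replicates 2 and 3 and high in each mutant pool, so that the sex mix went partly with genotype. The part of that mix in these values, or in those of X-linked genes such as Bcor, was not tested. The deubiquitinase gene Bap1 differed by -0.35 on the log2 scale (limma, adjusted p 0.253), and its partners Asxl3 and Asxl1 had 0.27 (0.333) and -0.08 (0.771). In the trithorax group, which counters Polycomb silencing, 0 of 10 genes passed. Ash2l, Rbbp5 and Wdr5, shared subunits of the histone methyltransferase complexes of this group, each had -0.35 (limma adjusted p 0.213, 0.222 and 0.289). Without control replicate 3, Wdr5 passed (0.0452).

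Genes that Polycomb is known to silence in many tissues were mostly at or near 0 in both genotypes. Of 26 such genes 24 had a mean below 0.5 RPKM, and no library exceeded 0.581 RPKM in any of those 24. Cdkn2a, Neurod1, Nkx2-2, Lhx3 and Evx1 were listed at 0 in all 6 libraries, which together held 179381124 reads. By counting error alone, 0 reads over the libraries counted allow an expected number of up to 3 (one-sided, 95%). The highest means were those of Gata6 (1.88 RPKM), Bmp3 (1.3), Pax6 (0.250), Cdkn2b (0.157) and Lhx2 (0.135). For the endoderm factor gene Gata6 the control mean was 1.57 ± 0.703 RPKM and the mutant mean 2.19 ± 0.235 (SD, n = 3), a log2 difference of 0.44 (limma, adjusted p 0.345). Bmp3, a gene of a secreted factor, had corresponding means of 0.916 ± 0.308 and 1.68 ± 0.560 RPKM, a log2 difference of 0.61 (limma, adjusted p 0.202). The summed level of the 26 genes was 2.94, 3.88 and 2.90 RPKM in controls and 4.51, 5.43 and 5.05 in mutants, and Gata6 and Bmp3 made up most of it. The interstitium markers summed to 129, 185 and 81.0 RPKM in controls and to 142, 226 and 203 in mutants, and their part in these values was not tested.

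The library profile of each EZH paralog was compared with 7116 other genes of at least 5 RPKM. Over the 6 libraries, Ism1, Smn1, Stx6 and Alkbh5 were most like Ezh2, with Pearson r of 0.990, 0.988, 0.985 and 0.979 on log2 levels. Calcrl, Hoxc4, Vti1a, Ankrd52 and Trub1 were most like Ezh1, with r of 0.989, 0.989, 0.982, 0.982 and 0.978. The profiles of Ezh2 and Ezh1 themselves had r of 0.062. Among the other Polycomb genes Eed was most like Ezh2 (r = 0.655) and Phc1 most like Ezh1 (r = 0.683). These values describe 6 libraries that share their depth scaling, the genes most like each were picked as the highest of many, and no test is given.

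Seed matches and differences between genotypes were set side by side. The 4 tested Polycomb genes with a match had a median log2 fold change of -0.10, and the 5 without one had -0.08. Over the wider pathway the medians were -0.17 in 24 genes with a match and -0.25 in 19 without. Over all tested genes with an annotated 3' UTR they were -0.10 in 4008 genes and -0.15 in 7565. Ezh1, with 2 miR-17/20a matches each followed by an A, had 0.16, while Rnf2, with 1 such match, had -0.27. Phc3 held 5 matches, of which 1 was to miR-17/20a, 2 to miR-18a, 1 to miR-19 and 1 to miR-92a, in a 3' UTR of 7965 bases, and 0.60% of tested genes held 5 or more. Kdm6b held 1 match, to miR-17/20a. Asxl2 held 4 matches in a 3' UTR of 9841 bases and had a log2 fold change of -0.06. The share of 0.60% is not adjusted for 3' UTR length, which had a median of 1231 bases over tested genes. A link between the number of matches and the difference was not tested.

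**Figure D4:**
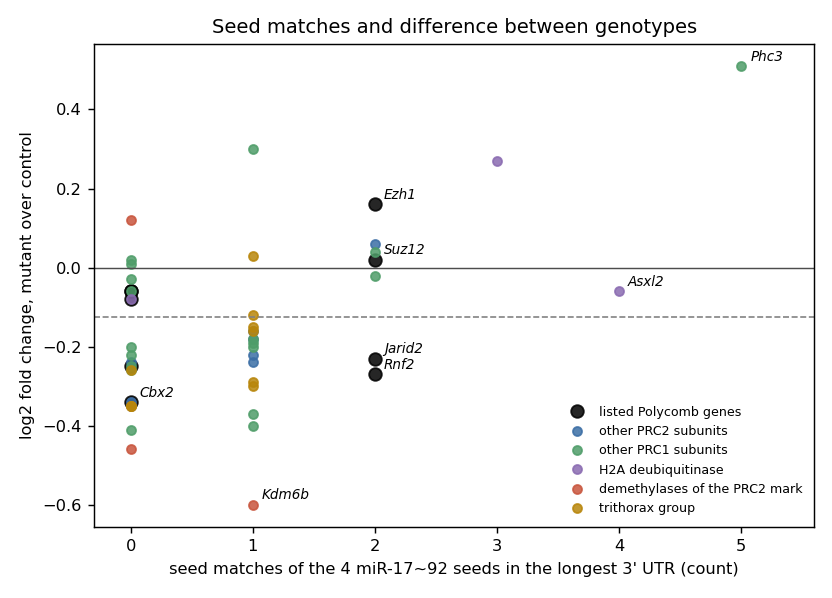
Number of seed matches to the 4 miR-17~92 seeds in the longest 3' UTR (horizontal) and log2 fold change of mutant over control (vertical) for the tested Polycomb genes (black) and 42 genes of the wider pathway (colours by role); the dashed line marks the median of all tested genes. Polycomb genes without a match lie between -0.34 and -0.06, those with 2 matches between -0.27 and 0.16, and Phc3 is alone at 5 matches with 0.51.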

How the data were processed

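The authors deposited 1 table of RPKM values, normalized for gene length and library depth, for 27179 Entrez Gene entries in the 6 libraries. Per the labels' protocols, RNA with an integrity number above 9 was made into cDNA (Ovation RNA-Seq System V2), and paired 100-base reads were taken over 2 lanes. Per the submitters' processing notes, the build was mm10 and the tools included FastQC and limma, and subread appears in column names, per the file headers. For the counting tool, its annotation and its strand setting: not given in the sources used here. Symbols were matched by Entrez Gene number to RefSeq (GRCm38.p6) for 25275 entries.

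Depth, gene length and whole reads (within 0.1 of a read) were recovered from the RPKM steps for all 13463 tested genes. A read may be a pair. The test between genotypes was limma's (version 3.58.1, R 4.3.3), two-sided, with genotype as the only term and a trend of variance with mean. It took log2(RPKM + 0.5) as input, kept genes whose mean over the 6 libraries reached 0.5 RPKM, and adjusted p-values over all of them by Benjamini-Hochberg, with calls at 0.05. Fold changes on that scale understate those of low genes. Ratios of paralogs used exact permutation tests in Python 3.11.15 (scipy 1.17.1). The fit was tested on simulated counts with the same spread setting for every gene. These held no scaling shift and no sex mix between genotypes, so that they do not test the fit under those. Nothing in the labels says whether pools share litters, so p-values measure the spread between pools.

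The Polycomb genes, the lists and the alternatives were chosen with earlier results of these data known. Named genes were the 10 Polycomb genes, any pathway gene that passed and, by lowest p, up to 3 others of its list, the 5 targets of highest mean, and the 5 genes most like Ezh2 and Ezh1. Ring1, Cbx8, Phc2 and Gm5946 were named after their values were seen, as paralogs, a neighbour or a copy. Asxl2 and the progenitor markers Eya1, Crym, Itga8, Wt1 and Pax2 were also named after their values were seen. Results for 2 genes under these rules are not reported here.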

Additional observations from a re-analysis of the deposited data

How the results depend on the processing

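None of the 9 tested Polycomb genes passed in limma under any of the 17 alternatives run, and their lowest adjusted p was 0.108 (Rnf2 without control replicate 3). Cbx7 was tested only in the fit without a filter, and did not pass there. Other scalings and voom moved some estimates across 0 without a call: Ezh2 (0.02), Eed (0.04), Phc1 (0.04) and Asxl1 (0.02) once scaled by median of ratios, 0.09, 0.12, 0.07 and 0.04 after quantile normalization, 0.04, 0.06, 0.06 and 0.04 when depth excluded mitochondrial ribosomal RNA, and with voom 0.05, 0.06, 0.07 and 0.05. Leaving out single libraries also crossed 0, with ranges of -0.15 to 0.03 for Ezh2, -0.20 to 0.03 for Eed, -0.10 to 0.10 for Suz12 (-0.0021 without control replicate 3), -0.17 to 0.03 for Phc1, -0.18 to 0.04 for Asxl1 and -1.10 to 0.02 for Uty. Over all genes the 422 calls became 143 without a filter and 684 with voom on recovered reads, and ranged from 148 to 1083 without single libraries (148 without mutant replicate 2, 1083 without control replicate 3). The split of 178 higher and 244 lower became 262 and 171 by median of ratios, 264 and 163 by quantiles, 268 and 149 when depth excluded that RNA, and 462 and 222 with voom. The count of other Polycomb genes called was 0, and was 1 under each of these 3 scalings (Phc3) or under robust moderation (Kdm6b), 2 with voom (Phc3 and Kdm6b), and 0 to 2 without single libraries. The difference in the Cbx7 to Cbx2 log2 ratio was 0.56 with a pseudocount of 1. The cause of these shifts was not tested. Same-numbered control and mutant libraries had correlated deviations of 0.053, 0.157 and 0.153, and each library correlated best with its own number, but the labels give no pairing; with the replicate number as a block, 393 genes and 0 Polycomb genes passed, and Cbx2 had an adjusted p of 0.26. Depth limits Cbx7 and Ring1, with 4 to 53 and 3 to 17 reads per library.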
